A study of Homo sapiens with 14 samples.

Results

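The HOX clusters and the clustered protocadherins are described here by the STAT5 and BCL6 ChIP-seq intervals listed near their gene starts in DLD-1 cells. Members were the genes whose symbol in the deposited lists was HOX followed by a cluster letter A to D and a number, or PCDH followed by the alpha, beta or gamma array name and a number. The rule found 67 symbols, 37 of HOX genes and 30 of clustered protocadherins, among 26333 symbols with an interval in any of the 4 separate lists. The reference gene table holds 92 protein-coding members, 39 HOX and 53 protocadherin genes.

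Chromatin immunoprecipitation with sequencing was performed in DLD-1, an established line from a human colorectal adenocarcinoma, with anti-STAT5 (C-17) or anti-BCL6 (N-3) antibodies. Control cells carried an empty vector. The activator group carried the plasmid pEGFP-C1199Tiam1, which codes for a part of the RAC exchange factor TIAM1, with vehicle, and the inhibitor group carried the same plasmid with 20 microM of the RAC inhibitor EHT 1864 for 16 h. All chromatin was taken 20 h after transfection, and all groups were transfected cells of the same line. The lists hold 2 control BCL6, 2 control STAT5, 2 activator STAT5 and 3 inhibitor BCL6 libraries, and the other 5 of the 14 libraries were not analysed here. Whether the libraries of a group came from separate cultures is not stated in the labels, and p-values measure only the spread between libraries, which may be technical. An interval near a gene start does not measure the gene's expression, so the cell line's own markers could not be checked. In such bulk chromatin, fewer cells with a bound site and less binding per cell cannot be told apart.

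Each interval carries 1 whole number per library, read here as a count of reads although the header does not name it. The value was never 1, so 0 and 2 are neighbours on this scale. Entry differed between lists: 1 library with a value sufficed for a control interval, whereas a treated interval held at least 2 in each of its libraries and shared no base with a control peak of the same antibody. Control and treated counts were therefore not compared with each other. Intervals lay between 3000 bp upstream and 1000 bp downstream of an Ensembl gene start of build GRCh37, measured to the interval's lower coordinate.

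HOX genes code for homeodomain transcription factors that give cells along the body axis their position. They lie in 4 clusters, and the order of the genes within a cluster follows the order in which they are switched on, from the anterior genes with low numbers to the posterior genes with high ones. Trithorax and Polycomb complexes keep them on or off, and the posterior genes mark the hindgut from which the colon derives. Clustered protocadherins are adhesion molecules of the cell surface, known best in neurons, where each cell uses a few of the many alternative first exons and CTCF and cohesin bring a chosen promoter to a distant enhancer. STAT5 is a transcription factor activated by cytokines and growth factors, and BCL6 is a repressor that recognises similar sequences.

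The sequence around the gene starts differed between the families. RefSeq promoter sequences (GRCh38.p14, 250 bases before to 50 after the start) were matched to 20 HOX and 47 protocadherin symbols. The HOX promoters were 9 of HOXA, 8 of HOXD, 2 of HOXC with the same sequence and 1 of HOXB, so the HOX values describe mainly HOXA and HOXD. Their G+C share had a median of 58% in HOX genes, 39.7% in protocadherins and 62.7% over 15841 protein-coding promoters. CG dinucleotides numbered a median of 22.5, 7 and 22 per promoter in the same order. The STAT motif, TTC and GAA with any 3 bases between them, reads the same on both strands. It was present in 0 of 20 HOX promoters and in 7 of 47 protocadherin promoters (14.9%), against 6.97% of all protein-coding promoters. The 7 were those of PCDHA2, PCDHA4, PCDHA12, PCDHGA6, PCDHGA7, PCDHGB6 and PCDHGB7. A match describes letters in the window and does not show a bound site. Of these genes PCDHA4 had a control BCL6 interval across its start, from 111 bp before to 150 bp after, with values of 0 and 2. The promoters below are examples of those where a deposited interval reached the gene start, and others, such as that of HOXD11, are not shown. At HOXA2 this was a control STAT5 interval (2 and 0) and at HOXA11 a control BCL6 interval (0 and 3). At PCDHB4 it was a control STAT5 interval (2 and 2) and at PCDHA4 the one just given. Capitals mark the STAT motif, which begins 174 bases before the start of PCDHA4. Gene starts of the newer build can differ from those of the lists, so the bases under an interval are not marked.
HOXA2: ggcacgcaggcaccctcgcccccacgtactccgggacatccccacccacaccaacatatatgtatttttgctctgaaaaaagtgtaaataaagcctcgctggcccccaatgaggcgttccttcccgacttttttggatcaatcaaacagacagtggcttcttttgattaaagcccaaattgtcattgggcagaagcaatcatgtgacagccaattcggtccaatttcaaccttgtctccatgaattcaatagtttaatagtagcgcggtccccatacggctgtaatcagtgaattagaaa
HOXA11: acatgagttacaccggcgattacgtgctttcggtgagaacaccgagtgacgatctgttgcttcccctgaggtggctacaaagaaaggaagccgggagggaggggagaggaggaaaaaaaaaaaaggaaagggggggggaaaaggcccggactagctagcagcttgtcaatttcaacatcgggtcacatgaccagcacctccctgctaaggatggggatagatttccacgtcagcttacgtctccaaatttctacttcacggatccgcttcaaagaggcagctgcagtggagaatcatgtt
PCDHB4: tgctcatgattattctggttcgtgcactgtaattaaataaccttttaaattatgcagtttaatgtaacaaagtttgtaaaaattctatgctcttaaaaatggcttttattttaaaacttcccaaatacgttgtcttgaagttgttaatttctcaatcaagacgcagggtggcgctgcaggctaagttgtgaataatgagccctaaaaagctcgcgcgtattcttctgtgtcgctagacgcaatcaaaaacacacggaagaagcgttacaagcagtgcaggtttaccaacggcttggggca
PCDHA4: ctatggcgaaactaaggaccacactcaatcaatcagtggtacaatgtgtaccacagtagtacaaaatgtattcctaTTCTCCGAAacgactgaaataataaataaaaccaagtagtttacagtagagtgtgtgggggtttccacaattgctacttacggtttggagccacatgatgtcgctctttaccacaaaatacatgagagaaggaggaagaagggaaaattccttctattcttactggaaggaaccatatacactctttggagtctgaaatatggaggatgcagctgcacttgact

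**Figure D1:**
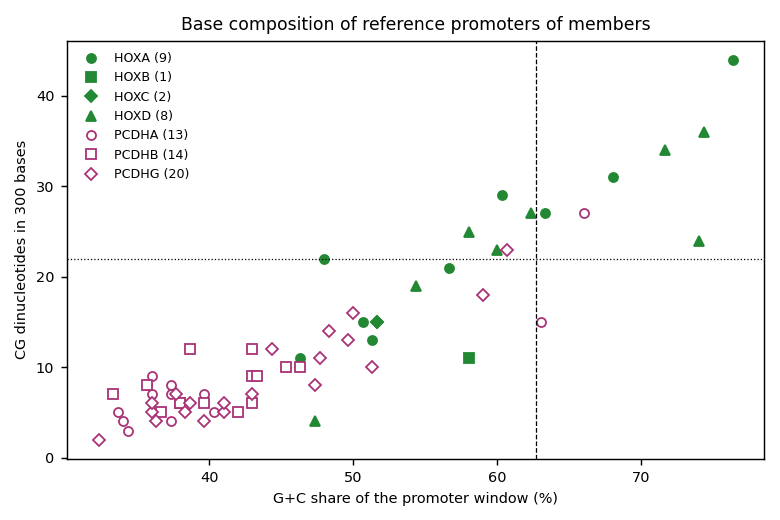
Each point is the RefSeq promoter (300 bases) of 1 member, by its G+C share in percent on the x axis and its number of CG dinucleotides on the y axis, with the number of promoters per cluster in the legend. The dashed and dotted lines are the medians of all protein-coding promoters, 62.7% and 22; most protocadherin promoters lie below both lines and HOX promoters spread over both sides.

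3 microRNAs of the HOX clusters entered the lists beside member genes. An activator STAT5 interval at HOXC5 was also assigned to MIR615, MIR196A2 lies between HOXC genes, and the description deposited for the start called HOXA9 names microRNA 196b. MIR196A2 itself had 2 activator STAT5 intervals, at chr12:54382816-54383055 and chr12:54383632-54383760, each with values of 2 and 4. The mature sequences are shown with the seed, bases 2 to 8, in capitals. The miR-196 pair shares a seed, and miR-615-3p has another; miR-196 is known to target HOX messages.
hsa-miR-196a-5p: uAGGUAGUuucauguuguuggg
hsa-miR-196b-5p: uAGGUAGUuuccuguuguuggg
hsa-miR-615-3p: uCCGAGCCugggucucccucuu

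The clusters were unequally represented by symbols. HOXA had 10 of 11 symbols in the lists, HOXB 9 of 10, HOXC 9 of 9 and HOXD 9 of 9. PCDHA had 10 of 15, PCDHB 15 of 16 and PCDHG 5 of 22. HOXA10, HOXB7, PCDHA3 and PCDHB16 had a gene start with intervals but no symbol, and only the deposited description names them. The other 21 members without a row, 4 alpha and 17 gamma protocadherins, had no start under their own symbol and none without a symbol. Of these, PCDHAC1 and PCDHGA12 are named in the descriptions of the starts called PCDHA6 and PCDHGC5. The description of 5 symbols names another gene: PCDHA6, PCDHB10, PCDHGA2 and PCDHGC5 carry the description of another protocadherin, and HOXA9 that of the microRNA. Values under these 5 symbols are thus less certain in their gene. HOXC4 and HOXC6 share 1 gene start, so HOX genes have 36 distinct starts and protocadherins 30.

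The gene starts were packed closely. HOXA spanned 104 kb on the minus strand of chromosome 7 and HOXB 198 kb on chromosome 17 (46608272 to 46806120, minus strand). HOXC spanned 94.3 kb on chromosome 12 (54332577 to 54426833) and HOXD 95.7 kb on chromosome 2 (176957620 to 177053308), both on the plus strand. The protocadherin arrays followed each other on the plus strand of chromosome 5, PCDHA over 180 kb, PCDHB over 194 kb and PCDHG over 155 kb, between 140165877 and 140864742. The median gap between neighbouring starts was 6964 bp in HOXD, 8568 bp in PCDHA and 9465 bp in PCDHB, and 29391 bp in PCDHG with its 5 starts.

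In the control BCL6 list 29 of 39 HOX genes had an interval (74.4%), close to the 74.0% of all protein-coding symbols. Of the protocadherins 27 of 53 had one (50.9%), and 27 of the 30 with a symbol in the lists (90.0%), where the protein-coding background of symbols in the lists was 86.2%. In the control STAT5 list the counts were 29 HOX genes (74.4%) and 28 protocadherins (52.8%), against 75.0% of protein-coding symbols. Among symbols present in the lists the STAT5 share was 93.3% for protocadherins and 78.4% for HOX genes, against 87.4%. A gene without a start under its own symbol counts as without an interval by construction, and most such protocadherins were alpha and gamma genes. By array, the control BCL6 shares were 60% of PCDHA, 81.25% of PCDHB and 22.7% of PCDHG genes. In control STAT5 they were 60%, 93.75% and 18.2%.

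The 2 control lists named partly different HOX genes. Of the HOX genes 22 were in both, 7 only in control BCL6 (HOXA3, HOXA6, HOXB9, HOXC9, HOXC10, HOXD4 and HOXD13) and 7 only in control STAT5 (among them HOXA4, HOXC5, HOXC8, HOXC12, HOXC13 and HOXD10). HOXD1 was in neither. Of the protocadherins 25 were in both, PCDHA4 and PCDHGC5 only in control BCL6, and PCDHAC2, PCDHB10 and PCDHB14 only in control STAT5. These differences between lists were not tested, and most of them rest on a value in 1 library. The same split over all protein-coding symbols is not given here, so it is not read as a trait of these families. Of those symbols 74.0% were in the control BCL6 list and 75.0% in the control STAT5 list. By cluster, control BCL6 intervals were at 8 HOXA, 9 HOXB, 5 HOXC and 7 HOXD genes and at 9 PCDHA, 13 PCDHB and 5 PCDHG genes. Control STAT5 intervals were at 8, 8, 7 and 6 HOX genes in the same order and at 9, 15 and 4 protocadherins.

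**Figure D2:**
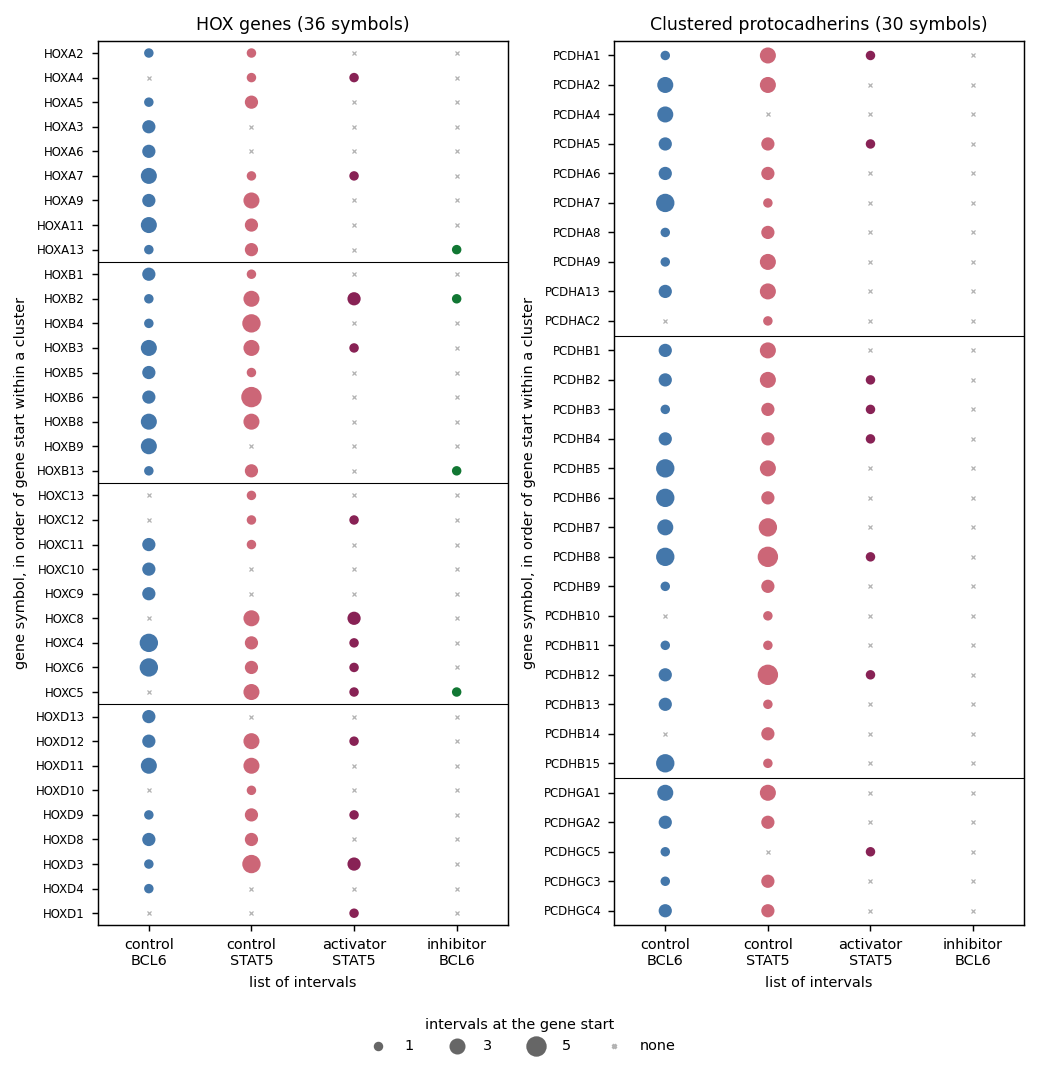
Rows are 36 of the 37 HOX symbols and the 30 protocadherin symbols in order of gene start, columns the 4 separate lists; the area of a dot grows with the number of intervals at the gene start and a grey cross means none. Both control columns are filled for most genes, the activator STAT5 column for 13 of the HOX genes drawn and 8 protocadherins, and the inhibitor BCL6 column for 4 HOX genes only.

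In the activator STAT5 list 14 of 39 HOX genes had an interval (35.9%), against 26.1% of protein-coding symbols. They were 3 of 11 HOXA, 2 of 10 HOXB, 5 of 9 HOXC and 4 of 9 HOXD genes, and HOXC4 and HOXC6 share an interval. Protocadherins were 8 of 53 (15.1%), 2 alpha, 5 beta and 1 gamma gene; among those with a symbol in the lists the share was 26.7%, against 30.4% of protein-coding symbols. In the inhibitor BCL6 list 4 HOX genes had an interval (10.3%), against 3.30% of protein-coding symbols, and no protocadherin did. HOXB2 was the single member in all 4 separate lists. Neighbouring genes of a cluster can share an interval, and 4 genes are few, so these shares are read as counts.

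Density was compared over libraries in the control lists, whose rule of entry was the same. Only gene starts with an interval in a separate list were counted, 36 of HOX genes and 30 of protocadherins. This left out more of the 53 protocadherins than of the 39 HOX genes. HOX genes had 0.639 and 0.944 distinct intervals per gene start in the BCL6 libraries and 0.694 and 1.31 in the STAT5 libraries. Protocadherins had 1.10 and 1.00 in the BCL6 libraries and 1.10 and 1.30 in the STAT5 libraries. The 17248 protein-coding starts with an interval in a separate list had 0.812, 0.990, 0.846 and 1.03. Protocadherins were thus above HOX genes in 3 of 4 libraries, by a mean of 0.229 ± 0.238 (SD, n = 4), which was no larger than the spread (exact permutation test over the signs of the 4 differences, two-sided p = 0.25, adjusted p = 0.667 over 3 tests). The smallest p this design allows is 2 in 16, so it could not reach 0.05. In the same order of libraries, 23, 34, 25 and 47 HOX intervals and 33, 30, 33 and 39 protocadherin intervals were held. The order of the families therefore depends on which starts are counted, and it was not tested over all reference genes. STAT5 libraries exceeded BCL6 libraries by 0.208 intervals per HOX start and by 0.150 per protocadherin start (exact permutation tests, two-sided p = 0.667 for both, adjusted p = 0.667, smallest possible 2 in 6). Control STAT5 replicate 2 held 47 HOX intervals against 25 in replicate 1, a ratio of 1.88, where the whole list had 40988 against 33713, a ratio of 1.22. Without replicate 2 the HOX difference was -0.0972.

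The density by cluster used the same starts. PCDHB had 1.23 ± 0.280 intervals per start (SD, n = 4 libraries here and in the next sentences) and HOXB 1.19 ± 0.500. PCDHA followed with 1.05 ± 0.311 and PCDHG with 0.950 ± 0.300. HOXD had 0.833 ± 0.192, HOXA 0.800 ± 0.258 and HOXC 0.750 ± 0.306. The ranges over the 4 libraries overlapped between every pair of neighbours in this order, so the order itself is not resolved.

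**Figure D3:**
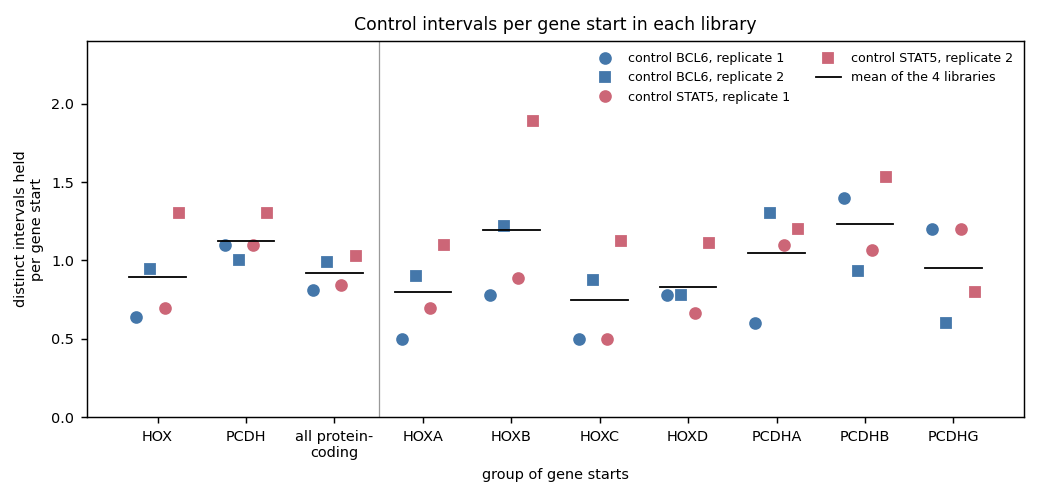
Distinct control intervals held per gene start (y axis) for HOX genes, protocadherins (PCDH), all protein-coding genes and each cluster, with 1 symbol per library and the mean of the 4 libraries as a line. Only gene starts with an interval in a separate list are counted. The STAT5 replicate 2 point is the highest for HOX genes, at 1.31, and the HOX points spread from 0.639 to 1.31 where those of the protocadherins lie between 1.00 and 1.30.

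Few control intervals were held by both libraries. In control BCL6 these were 4 of 53 HOX intervals (7.55%) and 3 of 60 protocadherin intervals (5.00%), against 9.19% of the list. In control STAT5 they were 9 of 63 (14.3%) and 6 of 66 (9.09%), against 9.34%. Over all intervals of each family, the median of the values above 0 was 2 in both control lists, which is the lowest such value.

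The posterior gene HOXA11, which patterns the forearm and the uterus, had the highest value of any member. Its control STAT5 interval at chr7:27225321-27226489 was 1169 bp wide and held 2 and 13. The 13 was the highest value of replicate 2 in the whole list, reached by 2 intervals, and 9 intervals of the list were wider. The neighbouring control BCL6 interval at chr7:27226478-27227161 held 2 and 5 and shared 12 bp with it. Replicate 1 held the lowest value in both, so the height rests on 1 library of each antibody. HOXA4, an anterior gene, came next with 2 and 9 over 707 bp at chr7:27171195-27171901 in control STAT5, where 11 intervals of the list had a higher value in replicate 2.

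HOXD11, which acts with HOXA11 in the forearm, held 2 in each of the 4 control libraries at its gene start. Its control BCL6 interval ran from 443 bp before to 107 bp after the start (chr2:176968502-176969052) and its control STAT5 interval from 394 bp before to 136 bp after (chr2:176968551-176969081), with 502 bp shared. Over the whole list 400 of 6287 control BCL6 intervals with a value in both libraries overlapped such a STAT5 interval, and HOXA11 and HOXD11 were the members among them. HOXD3, an anterior gene, led HOXD in control BCL6 with 2 and 4 at chr2:177000071-177000676.

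In HOXC the start shared by HOXC4 and HOXC6 led the control BCL6 list, with 3 and 3 at chr12:54409435-54410040, and HOXC5 led control STAT5 with 3 and 2 at chr12:54426051-54426739. HOXB was without a control BCL6 interval in both libraries; its highest value was 0 and 4 at HOXB9 (chr17:46705733-46706177). HOXB3 held 2 and 2 in control STAT5 at chr17:46667262-46667637, from 3 bp before to 372 bp after the gene start. None of the 11 HOXC STAT5 intervals overlapped a control BCL6 interval, against 30.2% of the list, whereas 16 of 63 HOX (25.4%) and 20 of 66 protocadherin STAT5 intervals (30.3%) did.

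Among protocadherins PCDHB5 led control BCL6 with 4 and 2 at chr5:140512583-140513134. It had another BCL6 interval in both libraries, 2 and 2 at chr5:140513634-140514126, and PCDHB13 held the remaining one, 2 and 3 at chr5:140591708-140592201. PCDHA8 held 0 and 5 at chr5:140220113-140220516 and PCDHGC3 0 and 5 at chr5:140853692-140854058, so neither array had a BCL6 interval in both libraries. In control STAT5 PCDHA9 held 5 and 2 at chr5:140224778-140225466, PCDHB4 2 and 2 at chr5:140501529-140501859, and PCDHGA1 2 and 2 at chr5:140707904-140708326. The PCDHB4 interval covered its gene start, shown above as a sequence. All other protocadherin values were between 0 and 5.

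Positions relative to the gene start are given beside those of each list. Pairs of interval and gene were counted where any part of the interval lay within 1000 bp of the start. In control BCL6 these were 45.8% of HOX and 53.3% of protocadherin pairs, against 53.2% of the list. In control STAT5 the shares were 53.8% and 57.6%, against 54.2%. HOXA had 11 of 15 STAT5 pairs within 1000 bp and HOXB 7 of 22, the highest and the lowest share of the 7 groups. In control BCL6 HOXB was again the lowest, with 7 of 18. PCDHG was the highest there, with 7 of 9, and HOXA had 7 of 15. Intervals that covered the gene start were 2 HOX (3.39%) and 3 protocadherin pairs (5.00%) in control BCL6, against 7.20% of the list. In control STAT5 they were 5 (7.69%) and 6 (9.09%), against 7.34%.

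**Figure D4:**
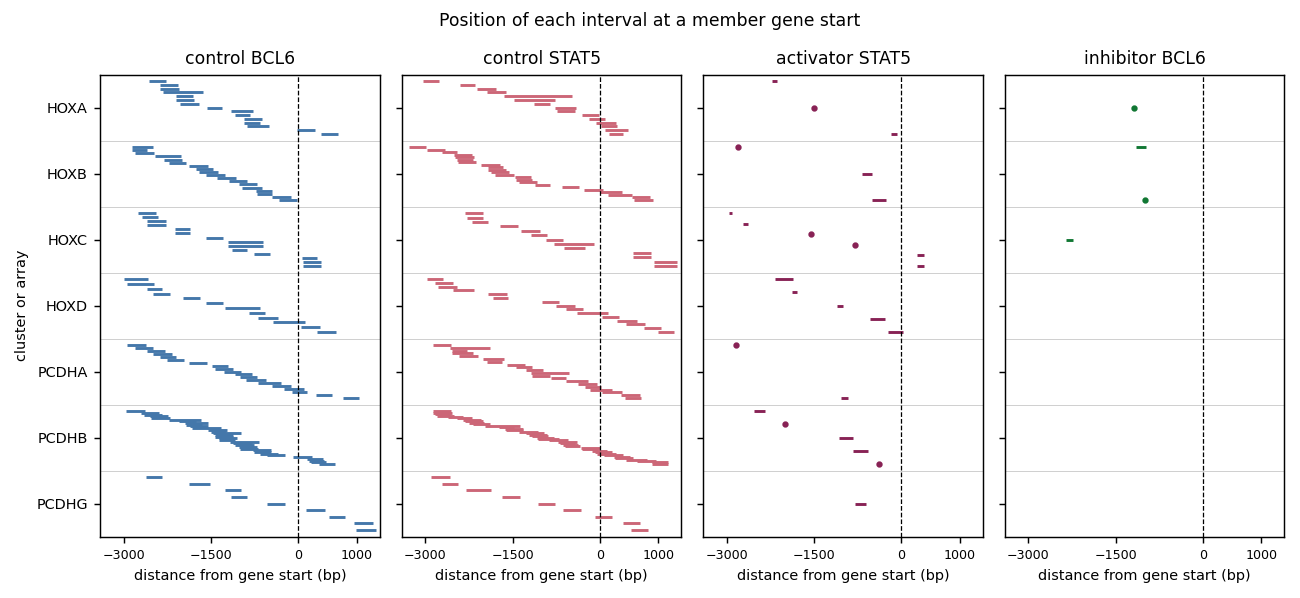
Horizontal bars are the intervals at member gene starts by their distance in bp from the start (x axis, negative upstream, dashed line at the start), 1 panel per list and 1 band per cluster; intervals under 50 bp are dots, and an interval at several genes is drawn once per gene. Control bars cover the whole window in every cluster, activator STAT5 bars are fewer and the inhibitor BCL6 panel holds 4 intervals, all of HOX genes.

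The 16 activator STAT5 intervals at HOX genes held a value of 2 in 62.5% of entries, near the 59.2% of the list. Their median width was 103.5 bp, against 142 bp in the list. 4 of 16 touched a control STAT5 peak (25.0%), against 18.9% of the list, and 4 were under 50 bp (25.0%), against 18.7%. A touching interval begins or ends at the base next to the control peak, so these intervals lie at its edge; the part of that adjacency in the result was not tested.

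Of the anterior HOX genes, HOXD3 had the interval with the highest value in the lower of its libraries. It held 4 and 6 over 112 bp at chr2:177000229-177000340, and all 112 bp lay on the control BCL6 peak with 2 and 4 described above. The interval touched a control STAT5 peak with 0 and 2. A further HOXD3 interval of 87 bp held 2 and 2. HOXC4 and HOXC6 shared an interval with 5 and 2 at chr12:54410906-54411037, and 117 of its 132 bp lay on a control BCL6 peak with 0 and 2. HOXD3 and this pair were the HOX members of the shared list of activator STAT5 intervals on control BCL6 peaks, 3 of 39 genes (7.69%) against 7.44% of protein-coding symbols. Counted as intervals they were 2 of 16 (12.5%), against 25.6% of the activator STAT5 list.

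HOXA4 held 2 and 2 over 18 bp at the edge of its 707 bp control peak. HOXB2, which patterns the hindbrain, held 2 and 3 over 238 bp at chr17:46622661-46622898, next to a control peak with 0 and 3, and 2 and 2 over 33 bp further upstream. Both HOXB2 intervals were also assigned to antisense genes, HOXB-AS1 and HOXB-AS3, so the gene they belong to is not settled. HOXB3 held 2 and 2 over 179 bp. HOXD1, without any control interval, held 2 and 4 over 256 bp at chr2:177052770-177053025, which is also assigned to the antisense gene HAGLR. Its nearest control STAT5 peak was 2149 bp away.

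Of the central genes, HOXA7 held 3 and 2 over 115 bp at chr7:27197623-27197737, from 182 to 68 bp before the gene start. HOXC8, which patterns the thorax, had an interval of 55 bp with 2 and 6 and another of 94 bp with 2 and 3, both between 2959 and 2627 bp before the start. HOXC5 held 2 and 3 over 17 bp at the edge of its 689 bp control peak. None of these HOXA7, HOXC8 and HOXC5 intervals lay on a control BCL6 peak, where 25.6% of the activator STAT5 list did. The interval of HOXC6, also a central gene, shared with HOXC4, lay on such a peak, as given above.

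Of the posterior genes, HOXD12 reached the highest value of the activator list among members, 2 and 7 over 303 bp at chr2:176962297-176962599. In replicate 2 the list had 391 intervals with a higher value. HOXD9 held 2 and 4 over 260 bp at chr2:176987187-176987446, from 227 bp before to 32 bp after the start, and was the only member whose activator interval covered the gene start. HOXC12 held 2 and 4 over 11 bp. Replicate 2 was higher than replicate 1 in 9 of the 16 HOX intervals and lower in 2, at HOXA7 and HOXC4/HOXC6; over the list its values summed to 44216 against 37629.

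In the 8 protocadherin intervals of the activator STAT5 list a value of 2 made up 87.5% of entries, against 59.2% of the list. PCDHB3 was the highest, with 2 and 5 over 246 bp at chr5:140479408-140479653. PCDHB12 held 2 and 3 over 181 bp at chr5:140585769-140585949, all on a control BCL6 peak with 0 and 2, and was the protocadherin of the shared list. That is 1 of 53 genes (1.89%), against 7.44% of protein-coding symbols, and 1 of 8 intervals (12.5%), against 25.6% of the activator STAT5 list. The other 6, at PCDHA1, PCDHA5, PCDHB2, PCDHB4, PCDHB8 and PCDHGC5, held 2 in both libraries. PCDHB4 and PCDHB8 did so over 10 and 13 bp and PCDHA1 over 23 bp, so 3 of 8 were under 50 bp (37.5%). The PCDHB8 interval touched a control STAT5 peak. That of the start called PCDHGC5, whose description names PCDHGA12, was 43281 bp from the nearest such peak. PCDHA3, which has no symbol in the lists, held 2 and 3 over 274 bp at chr5:140179576-140179849.

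The inhibitor BCL6 list held 4 HOX intervals. HOXB13, which marks the hindgut and prostate, held 3, 2 and 2 over 178 bp at chr17:46807090-46807267. It shared 64 bp with a control STAT5 peak with 0 and 3, and was the member of the shared list of inhibitor BCL6 intervals on control STAT5 peaks, 1 of 39 HOX genes (2.56%) against 0.868% of protein-coding symbols. Counted as intervals this was 1 of 4 (25%), against 23.7% of the inhibitor BCL6 list. HOXC5 held 2, 2 and 6 over 123 bp at chr12:54424477-54424599, and the 6 came from replicate 3. HOXA13, another posterior gene of the hindgut, held 2, 2 and 3 over 30 bp. HOXB2 held 2, 2 and 3 over 25 bp at chr17:46623371-46623395, between its activator STAT5 intervals without overlap. None of the 4 touched a control BCL6 peak, against 14.3% of the list, and 2 of 4 were under 50 bp, against 30.5%.

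**Figure D5:**
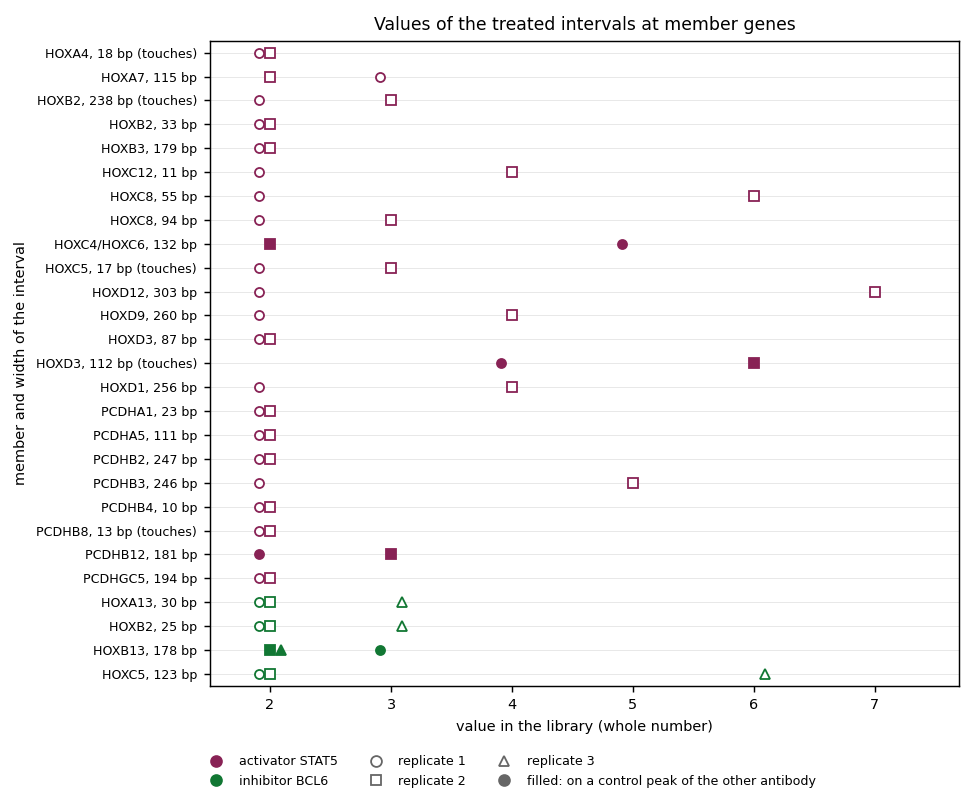
Values of the treated intervals at members, 15 of the 16 HOX intervals of the activator STAT5 list among them (x axis, whole numbers, moved slightly sideways by replicate), with the width of the interval beside the gene name and "touches" where it adjoins a control peak of the same antibody; filled symbols lie on a control peak of the other antibody. Most points sit at 2, and HOXD12 with 7 and HOXD3 with 4 and 6 stand out among activator STAT5 intervals.

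Genes that act with the HOX and protocadherin families were counted in the same lists. Over all protein-coding symbols the shares were 74.0% in control BCL6, 75.0% in control STAT5, 26.1% in activator STAT5 and 3.30% in inhibitor BCL6. Of 9 HOX cofactors of the PBX, MEIS and PKNOX families, 8 had a control BCL6 and 6 a control STAT5 interval, and PBX2 an activator STAT5 interval. Of 35 regulators of HOX transcription, 27 and 30 had control intervals, 15 an activator STAT5 interval and 3 an inhibitor BCL6 interval. Among the 15 were the Polycomb genes BMI1, CBX2, CBX7, EED, EZH1, EZH2, JARID2 and PHC2, the trithorax gene ASH2L, the demethylase KDM6B, CDX1, and the retinoic acid genes CYP26A1, CYP26B1 and RARG. KMT2A, the trithorax methyltransferase, held 5, 2 and 4 in the inhibitor BCL6 list, RARG 4, 2 and 3 and PHC1 2, 3 and 2. RARG was in both treated lists. Of 42 genes beside or inside the HOX clusters, 29 and 28 had control intervals, 14 an activator STAT5 interval and none an inhibitor BCL6 interval. The 14 were CBX5, HAGLR, HOXA11-AS, HOXB-AS1, HOXB-AS2, HOXB-AS3, KIAA1715, MIR196A2, MIR615, MTX2, PRAC1, PRAC2, SKAP1 and TTLL6.

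For the protocadherins, 22 genes of promoter choice and looping had 19 control BCL6, 18 control STAT5 and 6 activator STAT5 entries. The 6 were DNMT3B, RAD21, SMC3, SMCHD1, STAG1 and WIZ, of which RAD21, SMC3 and STAG1 belong to cohesin; CTCF was not among them. Of 20 partner genes of protocadherins, 18 and 13 had control intervals, and BMPR1B, CYFIP2, PDCD10 and WASF1 an activator STAT5 interval. Of 25 non-clustered protocadherins and relatives, 17 and 18 had control intervals, DCHS1, DCHS2 and FAT2 an activator STAT5 interval and CDHR1 an inhibitor BCL6 interval. Of 27 genes beside or inside the arrays, 20 and 18 had control intervals. CD14, DIAPH1, FCHSD1, HARS, HARS2, IK, RELL2, VTRNA1-1 and VTRNA1-2 had an activator STAT5 interval. TAF7, which lies between the beta and gamma arrays, had the single inhibitor BCL6 interval among these, with 2, 2 and 2 over 47 bp at chr5:140700753-140700799. The activator STAT5 shares of the 3 HOX lists were 11.1% of cofactors, 42.9% of regulators and 33.3% of neighbouring genes. Those of the protocadherin lists were 27.3% of looping genes, 20% of partners, 12% of non-clustered protocadherins and 33.3% of neighbouring genes. The background was 26.1% of protein-coding symbols. Over all symbols of the reference, which include antisense, microRNA and vault RNA genes as the neighbouring lists do, it was 12.8%. The lists mix gene types, so neither background matches the neighbouring genes fully.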

How the data were processed

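The authors deposited lists of intervals near gene starts of GRCh37 with a whole-number value per library, used as a count as deposited, and widths and distances in bp. The submitters' processing notes name Bowtie 0.12.7 and CASAVA 1.8.2; a peak caller, its threshold and library depths are not given in sources used here. Each list was described by the libraries its columns name. Distinct intervals were counted once, and overlap meant at least 1 shared bp. Members, gene lists and tests were chosen with earlier results of these data known.

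Named were all members in a treated list (with the genes of the other lists, except for items not reported here) and, per control list and cluster, the gene of the interval with the highest value in the lower of its 2 libraries (ties by sum, then distance). From the other gene lists, genes in a treated list were named. Members named beyond this (both-library intervals, intervals at promoters, counts of 5 or fewer, and the HOX genes of 1 control list) were chosen after their values were seen.

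Python 3.11.15, pandas 2.3.3, scipy 1.17.1 and matplotlib 3.10.9 were used. Density was tested over libraries with two-sided exact permutation tests and Benjamini-Hochberg adjustment, checked on simulated data. The percentages beside member counts are of 20056 protein-coding symbols in the RefSeq gene table of GRCh38.p14, used for names, types and promoters only; no coordinates were taken from it. Alternatives were a value of at least 3, both libraries, 1000 bp, 50 bp, larger overlap, other denominators, leaving libraries out and, chosen after seeing the data, starts named by description.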

Additional observations from a re-analysis of the deposited data

How the results depend on the processing

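Presence counts depended on the lowest values. At values of 3 or more, required of each library in treated lists, the HOX counts were 15 for BCL6 and 18 for STAT5 in control cells, 1 in activator STAT5 and 0 in inhibitor BCL6, and the protocadherin counts 16, 14 and 0 in the first 3. With a value in both libraries, 5 HOX genes were in the control BCL6 list and 10 in the STAT5 list, against 2 and 6 protocadherins. Within 1000 bp of the start, HOX counts were 19 in control BCL6, 8 in activator STAT5 and 2 in inhibitor BCL6, and protocadherins 5 in activator STAT5. With intervals of at least 50 bp, inhibitor BCL6 HOX genes were 2 and activator STAT5 protocadherins 5. Leaving out 1 library gave 19 to 24 HOX genes and 17 to 19 protocadherins in control BCL6. For control STAT5 these were 21 to 26 HOX genes and 21 to 22 protocadherins; the lower HOX and protocadherin counts in control BCL6 were without replicate 2. A treated count cannot change by leaving out a library, by construction of the lists. Member counts at these settings have no background over all protein-coding symbols here, so they are not compared with other genes. With control peaks held by both libraries, overlaps with the other antibody were 1 for HOX and 0 for protocadherins in activator STAT5 and 0 for HOX in inhibitor BCL6, where asking for at least 50% of the interval also gave 0. The STAT5 minus BCL6 density reversed for protocadherins at a value of at least 3 (-0.0333) and for HOX genes without control STAT5 replicate 2 (-0.0972). Leaving out 1 library gave -0.0972 to 0.514 for HOX genes, 0.05 to 0.25 for protocadherins and 0.152 to 0.307 for protocadherins minus HOX. The starts named by description changed no count by over 1.5 times. The unknown depth and values near the lowest possible limit what a single interval shows. No paired analysis was possible because the labels give running library numbers and no replicate numbers, so the replicate numbers used here follow the order of deposit and pair no libraries.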
